A study of Glycine max with 9 samples.

Results

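R05-591 is one of 9 soybean (Glycine max) lines whose maturing seeds were profiled by RNA sequencing, and it is a high oil line. It was set against the other 8 lines in all 33779 genes of the deposited table. Each gene carried its mean FPKM over the lines (fragments per kilobase of transcript scaled to the mapped fragments of a library, a level corrected for length and depth) and a Z-score for each line. A Z-score is the distance of a line from the gene's mean over the 9 lines on a log2 scale, in standard deviations of that gene. A gene was called raised in R05-591 at a Z-score of 2 or more and reduced at -2 or less. By this rule 394 genes were raised (1.17% of all genes) and 258 were reduced (0.764%), so that 652 genes (1.93%) were past the cutoff.

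All 9 libraries came from whole seeds at the mid-maturation stage S6, chosen by weight and color from plants in growth chambers. R05-4256, R02-6268F and R08-1450 were the other high oil lines and R95-1705 was a high protein line. FAM94 was a high stearic acid line, M23 a mid oleic acid line, and N0304-303-3 combined low palmitic, mid oleic and low linolenic acid. Jack had an oil like that of commodity soybean. Each line was a single library, so the values below have no replicate error, no test of a difference between lines was possible, and a Z-score past 2 describes these libraries. The table holds neither counts nor per-line FPKM, so the number of reads behind the value of a gene is unknown. The library totals given by the study were not used here. A Z-score gives no fold change: with 9 lines it cannot exceed 2.67 in size, whether the line lies far from the others or only slightly outside a narrow range.

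Seeds of soybean fill first with storage proteins and oil and then enter a desiccation phase. In this last phase the embryo accumulates late embryogenesis abundant (LEA) proteins, hydrophilic proteins thought to protect membranes and other proteins as water is lost, together with small heat shock proteins and sugars of the raffinose family. Oil is kept in oil bodies coated by oleosins and caleosins. Storage protein genes were abundant in the table: the 15 genes named as glycinin, conglycinin, albumin, lectin or cupin allergen made up 21.3% of the summed mean FPKM of these whole seed libraries.

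Genes raised and genes reduced in R05-591 lay at opposite ends of the abundance range. The median of the mean FPKM was 0.759 for raised genes (quartiles 0.374 and 1.98, highest 71.8) and 12.8 for reduced genes (quartiles 4.6 and 38.7, highest 6478.2), against 3.53 for all genes. Of the raised genes 237 (60.2%) had a mean below 1 FPKM and 9 (2.28%) had 10 FPKM or more, or 0.123% of the 7328 genes at that level. The counts for reduced genes were 7 (2.71%) and 142 (55.0%, or 1.94% of those 7328), and for all genes the shares were 19.5% and 21.7%. The raised genes held 0.105% of the summed mean FPKM and the reduced genes 4.642%. In each of the other 8 lines the medians of the 2 sets lay closer together, for example 3.69 and 4.9 for raised and reduced genes of R08-1450, 1.14 and 4.6 for those of R95-1705, and 1.23 and 3.37 for those of R05-4256. Below 0.5 FPKM, however, every line had more raised than reduced genes. The counts there were 126 and 1 in R05-591, 105 and 21 in R08-1450, 86 and 8 in Jack and 66 and 3 in FAM94.

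**Figure D1:**
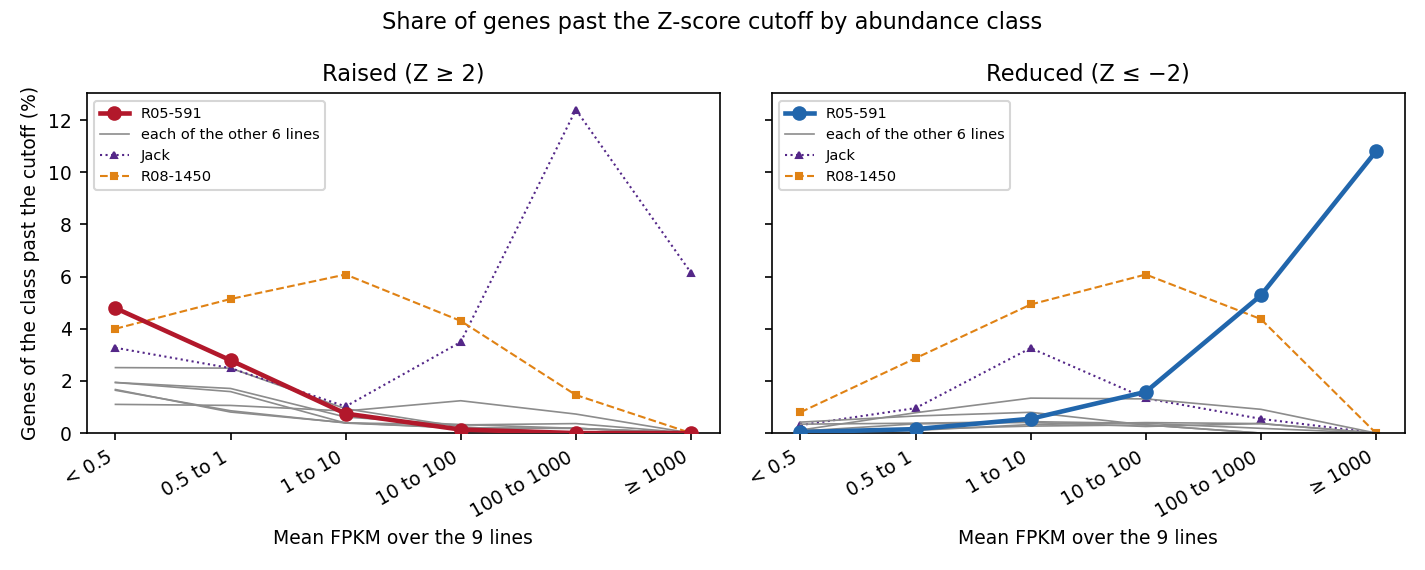
Percentage of the genes in each class of mean FPKM (over the 9 lines) that were raised (left panel) or reduced (right panel) in each line. R05-591 is drawn as a thick line, R08-1450 and Jack as broken lines and the other 6 lines in grey. The raised share of R05-591 is 4.79% below 0.5 FPKM and 0 from 100 FPKM on, while its reduced share climbs to 10.8% at 1000 FPKM or more.

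The class of abundant transcripts showed this most clearly. Among the 614 genes averaging 100 FPKM or more, 36 (5.86%) were reduced and 0 were raised in R05-591. In R08-1450, which had 1812 raised and 1545 reduced genes over the whole table and the most of any line, 24 of these genes were reduced and 8 raised. Jack had 3 reduced and 72 raised, and in the other 6 lines at most 5 were reduced. Of the 65 genes averaging 1000 FPKM or more, 7 (10.8%) were reduced in R05-591 and none in any other line. R05-591 was the lowest of the 9 lines in 13.8% of all genes, in 25.4% of genes at 10 FPKM or more and in 34.4% (211 genes) at 100 FPKM or more. It was the highest line in 12.2%, 6.26% and 4.56% (28 genes) of the same classes. At 100 FPKM or more its median Z-score was -0.71, against -0.09 over all genes. R08-1450 was the lowest line in 170 of the 614 abundant genes and the highest in 104, and Jack was the lowest in 14 and the highest in 281.

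FPKM are scaled to the mapped fragments of a library, so both sets depend on how a library is centred. Whether the lower values of abundant transcripts bear on the raised set was not tested. Subtracting each line's median Z-score gave 525 raised and 163 reduced genes, which moved the raised share of the genes past the cutoff to 76.3%, against 60.4% as deposited. Leaving R95-1705 out of the Z-scores gave 290 raised and 169 reduced genes, 143 of which were among the 258 reduced genes. With 8 lines a Z-score cannot exceed 2.47, so that a cutoff of 2 is stricter than with 9.

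The 7 reduced genes at 1000 FPKM or more were seed maturation and oil body genes with a protease and a regulator among them. Glyma02g08400 encodes the seed maturation protein PM31, a small heat shock protein, and had the highest mean (6478 FPKM, chromosome 2, 6593609 to 6595501). Its Z-score was -2.36 in R05-591, and ranged over the other lines from -0.53 in R02-6268F to 1.16 in R95-1705. Glyma19g42490, annotated as an aspartyl protease, had a mean of 3665 FPKM and a Z-score of -2.28 in R05-591, with -0.44 in R02-6268F as the next lowest. Glyma09g31740, a dehydrin, stood at -2.38 with a mean of 3341 FPKM, and Glyma07g38790, the seed maturation protein PM34, at -2.40 with 3180 FPKM. In these 4 genes no other line was below -0.53, so that R05-591 stood alone at the low end. Glyma06g02160, annotated as related to a transcription activator, followed at -2.10 and 1131 FPKM. The last were Glyma05g08880, an oleosin (-2.08, 1042 FPKM), and Glyma10g33350, a caleosin (-2.10, 1025 FPKM).

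Other reduced genes with a high mean were also maturation genes: Glyma10g07410, an LEA protein of the embryonic cell protein 63 type (-2.04, 965 FPKM), Glyma16g03470, the LEA protein PM22 (-2.24, 843 FPKM), and Glyma03g07470, an Em protein (-2.15, 842 FPKM). By size of the Z-score alone, among genes of at least 1 FPKM, the reduced set was led by Glyma05g27311, a tetratricopeptide repeat protein (-2.55, 2.34 FPKM), and Glyma04g08400, a protein of unknown function (-2.54, 7.64 FPKM). Glyma01g45481 (-2.48), Glyma01g43880 (-2.48), a chalcone synthase family gene at 62.98 FPKM, and the unnamed gene XLOC_039514 on chromosome 15 (-2.47) came next.

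The late seed maturation genes were described as a list, namely the genes whose annotation, in the study's tables as held here, names a seed maturation protein, an LEA protein, a dehydrin, an Em or stress induced protein, an AWPM-19-like protein or an HVA22 homologue. The list held 32 genes with means between 1.56 and 6478 FPKM. In R05-591, 13 of the 32 were reduced and 0 were raised, against 0.764% and 1.17% of all genes and 5.86% and 0 at 100 FPKM or more. The median Z-score of the list was -1.90 in R05-591, and 24 genes were at -1.5 or less. R05-591 was the lowest line in 29 of the 32 genes. The exceptions were Glyma13g44020, the seed maturation protein PM30 (-1.02, with R02-6268F lowest at -1.21), Glyma02g44200, an LEA hydroxyproline-rich glycoprotein at 1.56 FPKM (-0.01), and Glyma07g06960 (0.18). Of the list, 13 genes came only from tables that the study chose by differences between these same lines, so their direction is no separate evidence. The 19 genes from the list of most abundant transcripts, which was chosen by level, included 8 reduced genes, with R05-591 lowest in 18 and a median of -1.98. The other 81 of the 100 most abundant transcripts had 5 reduced genes and a median of -0.32 in R05-591, which was their lowest line in 17.

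**Figure D2:**
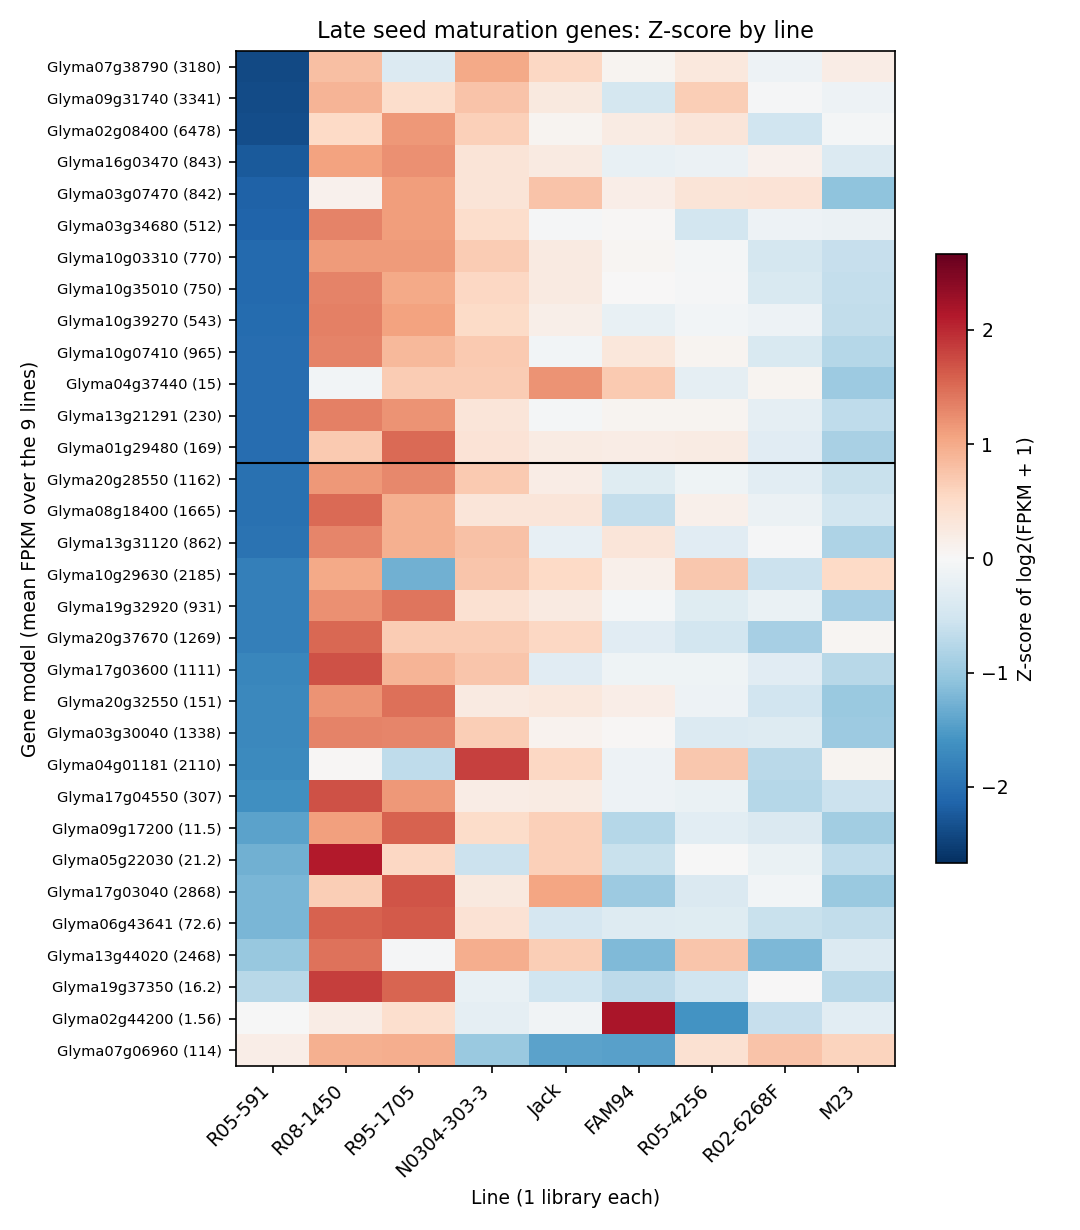
Z-score of log2(FPKM + 1) of the 32 late seed maturation genes (rows, with the mean FPKM in parentheses) in the 9 lines (columns, 1 library each), sorted by R05-591. The horizontal line separates the 13 genes at -2 or less. The R05-591 column is the lowest in 29 rows, and R08-1450 and R95-1705 hold the highest value in 28.

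The opposite end of the same genes was held by 2 lines. R08-1450 was the highest line in 16 and R95-1705 in 12 of the 32 genes, N0304-303-3 in 2, and FAM94 and Jack in 1 each. The median Z-score of the list was 1.21 in R08-1450, 1.09 in R95-1705, 0.50 in N0304-303-3, 0.23 in Jack, -0.09 in FAM94 and in R05-4256, -0.29 in R02-6268F and -0.65 in M23. M23, the next lowest by median, was also the line just above R05-591 in 20 of the 29 genes in which R05-591 was lowest.

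Most families of the list had this order, with exceptions. The genes named as PM proteins ran from -2.40 (a PM34 gene) to -1.02 (PM30) in R05-591. Among them, Glyma20g28550 (PM25), Glyma08g18400 (PM28) and Glyma13g31120 (pPM32) stood at -1.99, -1.98 and -1.97, just short of the cutoff. These 3 were at 1.15, 1.52 and 1.29 in R08-1450 and at 1.27, 0.94 and 0.95 in R95-1705. The genes of the embryonic cell protein 63 type were Glyma10g07410 (-2.04), Glyma13g21291 (-2.03) and Glyma19g37350 (-0.73), and R08-1450 was the highest line in all 3, at 1.33, 1.35 and 1.85. The AWPM-19-like membrane proteins Glyma10g35010 and Glyma20g32550 were at -2.07 and -1.73. In the HVA22 homologue Glyma04g37440 (-2.03) Jack was the highest line at 1.20 and R08-1450 was at -0.08, and in the Em gene Glyma03g07470 R08-1450 was at 0.12. PM34 and PM30 are cases where R95-1705 departed from the pattern, with PM30 at -1.02 in R05-591 and -0.03 in R95-1705. The 3 PM34 genes, Glyma07g38790, Glyma10g29630 and Glyma20g37670, were at -2.40, -1.83 and -1.82 in R05-591, while R95-1705 was at -0.37, -1.28 and 0.67 and R08-1450 at 0.79, 1.01 and 1.54. The dehydrin Glyma04g01181 (2110 FPKM) was at -1.69 in R05-591 and -0.69 in R95-1705, with N0304-303-3 highest at 1.82.

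The genes outside the list whose 9 Z-scores were most alike to the list's median profile, among genes of at least 10 FPKM, were Glyma08g08621, a protein phosphatase 2C (Pearson r = 0.995 over 9 lines), XLOC_020081 on chromosome 8 (0.993), Glyma07g10030 (0.991), Glyma19g40060 (0.988) and XLOC_040545 on chromosome 15 (0.987). They were picked by this likeness from the 7328 genes at that level, leaving out the list. Their high r and their order of the lines therefore follow from the choice. Glyma08g08621 had a mean of 135 FPKM and a Z-score of -2.02 in R05-591, 1.26 in R08-1450 and 1.22 in R95-1705. Glyma07g10030 (159 FPKM) was at -2.13 in R05-591.

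Sugars of the raffinose family accompany LEA proteins in drying seeds. The list of their genes held galactinol synthase, which makes the galactosyl donor, stachyose synthase and an alpha-galactosidase, 6 genes in all, each from a table chosen by differences between the lines. R05-591 was the lowest line in all 6, with a median of -1.84, and 2 were reduced: the galactinol synthase genes Glyma10g28610 (-2.33, 23.4 FPKM) and Glyma03g38910 (-2.01, 1.99 FPKM). Of the source tables, 3.65% (genes past the cutoff) and 7.06% (genes that differ by fold) were reduced in R05-591, against 0.764% of all genes. R05-591 was the lowest line in 263 of the 1998 and 70 of the 269 genes of these tables. Glyma19g40680 missed the cutoff at -1.99, the stachyose synthase Glyma19g40550 was at -1.68 and Glyma03g38080 at -1.66. R08-1450 and R95-1705 had medians of 1.03 and 1.24 in these genes.

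Oil body proteins were divided. All 7 genes came from the list of most abundant transcripts, of which 13 of 100 were reduced in R05-591. Of the 7, 2 were reduced, a count near that background. They were the caleosin Glyma10g33350 and the oleosin Glyma05g08880, and they were unlike each other in the other lines. The caleosin had the late maturation order, with 1.20 in R08-1450 and 1.05 in R95-1705, and the oleosin was highest in N0304-303-3 at 1.53, with -0.26 in R08-1450. The other 5 oleosins ran from -0.68 to 0.58 in R05-591 and each was lower in R08-1450 and in R95-1705 than in R05-591. Glyma19g13060, the oleosin with the highest mean (6719 FPKM), was at 0.58 in R05-591, -1.55 in R08-1450 and -1.42 in R95-1705. Among 11 lipid enzyme genes, 7 of them only from the tables chosen by differences, 1 was reduced, which is near the 3.65% and 7.06% reduced in those tables. It was Glyma02g15600, the stearoyl-acyl-carrier-protein desaturase FAB2B, which introduces the double bond of oleic acid. Its Z-score was -2.35 in R05-591 at a mean of 175 FPKM, against -0.41 in R95-1705 as the next lowest line and 1.02 in R02-6268F as the highest. The oleate desaturases FAD2-1A (Glyma10g42470) and FAD2-1B (Glyma20g24530) were at 0.25 and -0.81 in R05-591.

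Storage proteins stayed short of the cutoff. Of the 15 genes 0 were reduced and 0 raised, with a median of -0.21 in R05-591, -1.41 in R08-1450 and -0.78 in R95-1705. The lowest in R05-591 was Glyma10g39170, a beta-conglycinin (-1.93, 1396 FPKM), and the highest were the 2 rows of the lectin gene Le1, Glyma02g01590, at 1.19 and 1.22, which share a single span. The protease inhibitors, which are stored in the same vacuoles, were divided, with 7 genes above 0 in R05-591 and 3 below. The 10 genes had a median of 0.80 in R05-591, -1.11 in R08-1450 and -0.92 in R95-1705, and none was past the cutoff in R05-591. Glyma16g33400, a Bowman-Birk inhibitor with a mean of 17690 FPKM, was at 1.54 in R05-591, and the Kunitz trypsin inhibitor Glyma08g45531 (10455 FPKM) at 1.04. The 3 genes below 0 were all annotated as uncharacterized proteins with a Bowman-Birk type name, as were some of those above 0. Among the 3, Glyma06g08280 (2766 FPKM) and Glyma13g23980 (1381 FPKM) were at -1.08 and -1.18, with R05-591 the lowest line in both.

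**Figure D3:**
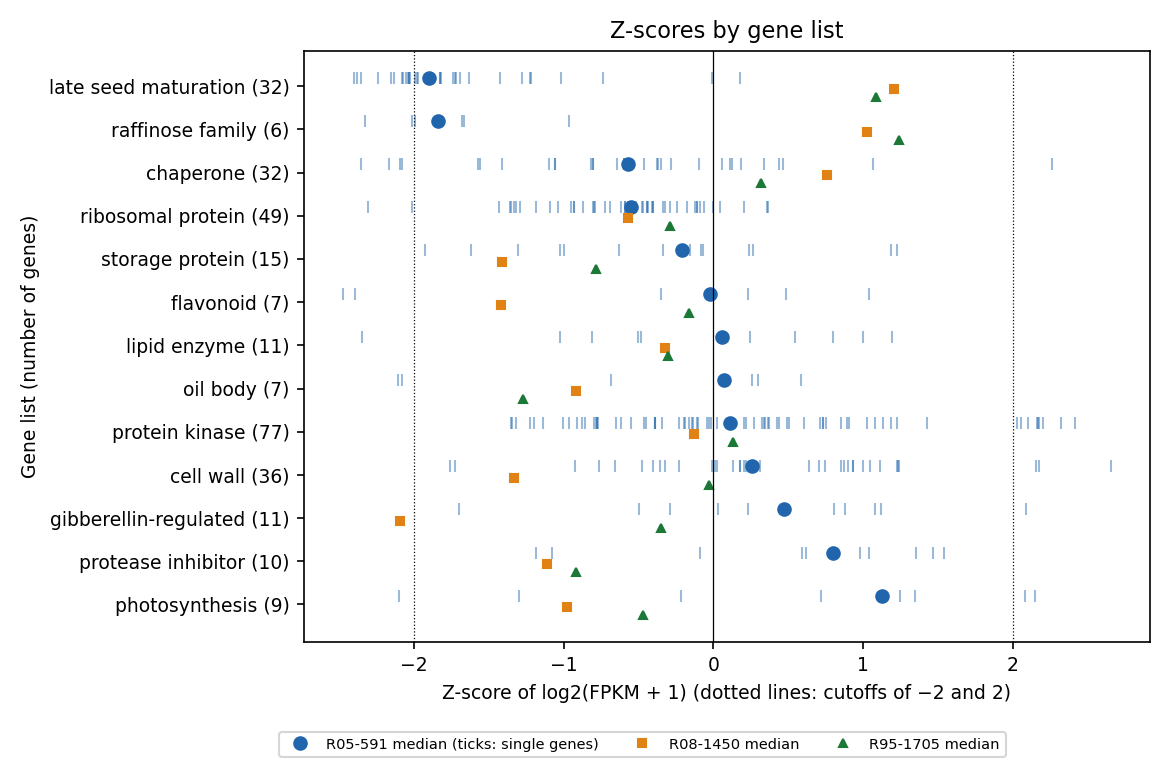
Median Z-score of each gene list in R05-591 (circles), R08-1450 (squares) and R95-1705 (triangles), with the single genes of R05-591 as ticks and the number of genes in parentheses. The late seed maturation and raffinose family lists have R05-591 at -1.90 and -1.84 and both other lines above 1, and the photosynthesis and protease inhibitor lists have the reverse order.

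The genes whose annotation names a chaperone or heat shock protein, most of which help proteins fold, included 4 reduced and 1 raised gene among 32, with a median of -0.57 in R05-591. Of the 32, 5 were heat shock transcription factors, none of them past the cutoff, and 28 came from the study's list of genes past the cutoff in any line, of which 3.65% were reduced and 4.95% raised in the copy used here. Besides PM31, which belongs to this list as well, the reduced genes were a heat shock protein 70, Glyma01g44910 (-2.17, 55.8 FPKM), an HSP20-like gene, Glyma03g37191 (-2.09), and a chaperonin 10, Glyma03g28120 (-2.08). The raised one, Glyma01g43691, a DnaJ protein, had a mean of 0.106 FPKM. Ribosomal proteins had 2 reduced genes among 49, Glyma03g25520 (-2.31) and Glyma03g35530 (-2.01), and a median of -0.55. Of the 49, 46 came from the study's list of genes past the cutoff in any line, in the copy of which used here 3.65% were reduced in R05-591, so 2 reduced genes lay near the background.

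Flavonoid enzymes were listed with the seed coat in mind, but the tissue their transcripts came from was not tested. All 7 genes came from tables chosen by differences between the lines, in which 3.65% (genes past the cutoff) and 7.06% (genes that differ by fold) were reduced in R05-591, against 0.764% of all genes. Of the 7, 2 were reduced, the chalcone synthase family genes Glyma01g43880 (-2.48, 62.98 FPKM) and Glyma11g01350 (-2.40, 17.1 FPKM), which catalyse the first step of the pathway. In both the other 8 lines stayed between -0.35 and 0.98. The later enzymes, 2 dihydroflavonol reductases, 2 leucoanthocyanidin dioxygenases and a flavanone hydroxylase, lay between -0.35 and 1.04 in R05-591, all short of the cutoff. Genes of photosynthesis mark green tissue, and all 9 in the list came from tables chosen by differences between these same lines, 6 of them from the list past the cutoff, where 4.95% were raised and 3.65% reduced in R05-591, so their direction is no separate evidence. They had a median of 1.13 in R05-591, -0.98 in R08-1450 and -0.47 in R95-1705. R05-591 was the highest line in 5 of the 9 genes. The 2 raised ones were of low level, Glyma01g41320, a chlorophyll a/b-binding protein (2.08, 1.29 FPKM), and Glyma02g10540, a PsbP-like protein (2.15, 0.753 FPKM), and the Rubisco small subunit gene Glyma13g00910 was reduced (-2.10, 42.8 FPKM). The part of green tissue in the differences between lines was not tested.

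The raised genes fell into few of the lists, and most had no name here, because the copy used here of the study's list of genes past the cutoff holds 1998 of 8037 genes: 80 of 394 carried a description and 16 of these fell into a list, against 69 of 258 and 26 for reduced genes. The list of genes whose annotation names a protein kinase had 9 raised and 0 reduced among 77 rows, with a median of 0.11. The 77 include both rows of the lectin gene Le1 and a kinase phosphatase, Glyma05g30745, none of them past the cutoff. The cell wall list had 3 raised and 0 reduced among 36 (median 0.26), and the gibberellin-regulated list 1 raised and 0 reduced among 11 (median 0.47). Of these lists, 75 kinase rows, 24 cell wall genes and 4 gibberellin-regulated genes came from the study's list of genes past the cutoff in any line, held here in part, in which 4.95% were raised in R05-591 and 3.65% reduced, so those shares are a closer background than the shares of all genes. The raised kinases had means from 0.127 to 9.62 FPKM, with Glyma06g02000 (2.06) the highest. The raised cell wall genes were the expansin Glyma03g04390, the arabinogalactan protein Glyma01g39810 (2.18, 0.566 FPKM) and the pectin lyase-like Glyma05g02890 (2.16, 0.157 FPKM). The gibberellin-regulated gene was Glyma04g35030 (2.09, 3.17 FPKM).

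Only 9 raised genes reached a mean of 10 FPKM. Glyma14g03721 on chromosome 14 (2401375 to 2402184) was the most abundant at 71.8 FPKM. Its Z-score was 2.01 in R05-591, and R08-1450 was the lowest line at -1.84. Glyma02g45070, a lipid transfer protein family gene (39.9 FPKM), was at 2.02 in R05-591, with R08-1450 again lowest at -1.73. Glyma14g03685 (23.0 FPKM) was at 2.43 in R05-591, with R08-1450 at -1.22, and lies beside the raised gene XLOC_038106 (2.55, 6.76 FPKM), so that 3 raised genes lay between 2382721 and 2402184 on chromosome 14. Glyma04g07460, a LisH and WD40 protein (17.8 FPKM), was at 2.08 in R05-591 and lowest in Jack at -1.12. Glyma02g17170, an F-box protein (10.05 FPKM), was at 2.08, with R95-1705 lowest at -1.17. The other 4, XLOC_021788, XLOC_041769, XLOC_026063 and XLOC_018888, had no name in the tables and means from 10.05 to 12.6 FPKM.

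Where 2 or more lines shared the lowest Z-score of a gene they were taken to be at 0, and the FPKM of each line was then solved from the Z-scores and the mean. This was possible in 895 genes (2.65% of all genes), among them 61 raised genes (15.5% of the raised set). A reduced gene cannot be among them, since with 2 lines tied lowest no Z-score can be under -1.76. The 0 of the tied lines is an inference from equal Z-scores, and it can be a failed estimate as well as an absent transcript. A gene with lines at 0 was in the table only if it averaged at least 0.5 FPKM. Many of the 61 raised genes were therefore there only through their value in R05-591, and their contrast with the other lines was partly fixed by that filter. In the 61 raised genes the FPKM of R05-591 ran from 2.36 to 75.9 with a median of 6.6, while the highest of the other 8 lines had a median of 0.811 FPKM. The median gene had 5 lines at 0. Short spans were frequent in the whole raised set, where 16.5% of genes spanned 1000 bp or less, against 5.42% of all genes. XLOC_020159 (chromosome 8, 22580142 to 22580682) had 75.9 FPKM in R05-591 and 3.66 in FAM94, and 0 in the other 7 lines. XLOC_018364 on chromosome 7 had 51.4 FPKM in R05-591 and 1.94 at most in another line. The expansin gene Glyma03g04390, whose kind of protein loosens cell walls, had 13.4 FPKM in R05-591, 0.197 in R95-1705, 0.118 in Jack, 0.0971 in M23 and 0 in the other 5 lines, and the second largest Z-score (2.66) of raised genes of at least 1 FPKM. The largest was that of XLOC_015654 (2.67), and XLOC_035258 on chromosome 13 (2.65), XLOC_024127 on chromosome 9 (2.65) and XLOC_043800 on chromosome 16 (2.64) followed, none of them with a name in the tables.

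**Figure D4:**
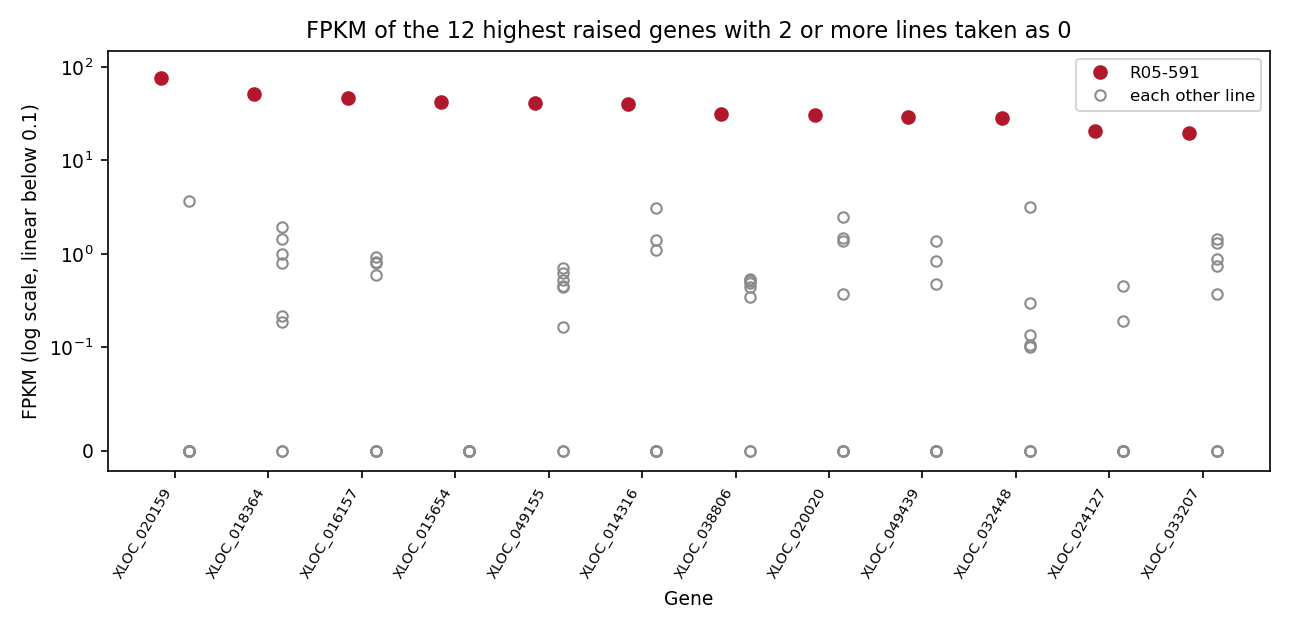
FPKM in each line of the 12 raised genes with the highest R05-591 value among the raised genes with 2 or more lines taken as 0. R05-591 is the filled point and each other line an open point, on a log axis that is linear below 0.1, and R05-591 lies between 19.9 and 75.9 while no other line exceeds 3.66. Genes with lines at 0 were in the table only if they averaged at least 0.5 FPKM.

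By the same inference, transcripts were above 0 in R05-591 alone at 3 places. The filter on the mean let these genes into the table only through R05-591. XLOC_015654 (chromosome 6, 29502122 to 29502254, a span of 133 bp) had 42.7 FPKM, XLOC_031759 (chromosome 12, 35669402 to 35670493) had 8.8 FPKM and XLOC_053951 on chromosome 20 had 4.57 FPKM. Another 14 genes were above 0 in R05-591 and in a single other line, which was R05-4256 in 6, R02-6268F in 4 and M23 and N0304-303-3 in 0. These counts include traces in either line. Of the genes shared with R02-6268F, XLOC_021490 had 0.818 FPKM in R05-591 and 59.1 in R02-6268F. XLOC_047323 had 0.403 and 11.9, and XLOC_008409 had 0.403 and 4.38, while XLOC_030450 had 7.43 and 0.268. Of the genes shared with R05-4256 alone, 3 lay side by side on scaffold 57. XLOC_054748 had 375 FPKM in R05-591 and 144 in R05-4256, XLOC_054746 had 50.3 and 33.0, and XLOC_054749 had 11.7 and 9.91. These 3 genes have short spans of 127, 168 and 302 bp, in that order. None of them was called raised, because a second line was high. Over the 895 genes R05-591 and R05-4256 were both above 0 or both at 0 in 602 (67.3%), which was the most of the 8 lines. R02-6268F followed with 62.9% and M23 with 61.8%, R95-1705 had 57.4%, and R08-1450 had the least at 45.1%.

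The sets were spread over all 20 chromosomes. Raised genes made up 1.17% of the genes in the outer 25% of the chromosomes at either end and 1.13% of those in the middle, and reduced genes 0.763% and 0.762%. By chromosome the raised share ran from 0.7% on chromosome 17 to 1.73% on chromosome 16, and chromosome 2 held the most raised genes (32). The reduced share ran from 0.367% on chromosome 14 to 1.49% on chromosome 1 (21 genes). A run of 3 or more adjacent genes past the cutoff on the same side occurred 1 time among raised and 0 times among reduced genes. It held 4 unnamed genes on chromosome 11, XLOC_030450 to XLOC_030453, between 26929149 and 26979623. Their Z-scores in R05-591 were 2.65, 2.63, 2.48 and 2.62, and their FPKM were 7.43, 4.46, 4.68 and 10.6, against 0.721 at most in any other line. The spans were 2207 to 2250 bp long with gaps of 8724 to 16554 bp between them, and N0304-303-3, R08-1450 and R95-1705 were at 0 in all 4. With lines at 0, such genes were in the table only if they averaged at least 0.5 FPKM. Pairs of adjacent members were found 16 times among raised and 7 times among reduced genes. Members in a run or pair made up 9.14% of the raised and 5.43% of the reduced genes. In the other lines these shares ran from 1.13% (R05-4256) to 14.3% (R08-1450) of raised genes. For reduced genes they ran from 2.04% (R95-1705) to 22.4% (M23). FAM94, Jack and N0304-303-3 also had 1 raised run each, and R08-1450 had 10. At a cutoff of 1.5 there were 15 raised and 10 reduced runs.

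R08-1450 and R95-1705 leaned against R05-591 in both sets. By the way a Z-score is built, the other 8 values of a gene sum to the opposite of the R05-591 value, so their mean was -0.28 in raised and 0.27 in reduced genes, and what can vary is how this is divided among the lines. In raised genes the median Z-score was -0.70 in R08-1450, -0.52 in R95-1705 and -0.43 in N0304-303-3, and between -0.29 in FAM94 and -0.05 in M23 in the other 5 lines. R08-1450 was below 0 in 351 of the 394 raised genes (89.1%) and R95-1705 in 331 (84.0%). Both were below 0 in 297 (75.4%) and both above 0 in 9. In reduced genes the median was 0.77 in R08-1450, 0.61 in N0304-303-3 and 0.51 in R95-1705, and between -0.06 in M23 and 0.30 in Jack in the other lines. R08-1450 was above 0 in 212 of the 258 reduced genes (82.2%), N0304-303-3 in 218 (84.5%) and R95-1705 in 200 (77.5%). R08-1450 and R95-1705 were both above 0 in 166 (64.3%) and both below 0 in 12.

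**Figure D5:**
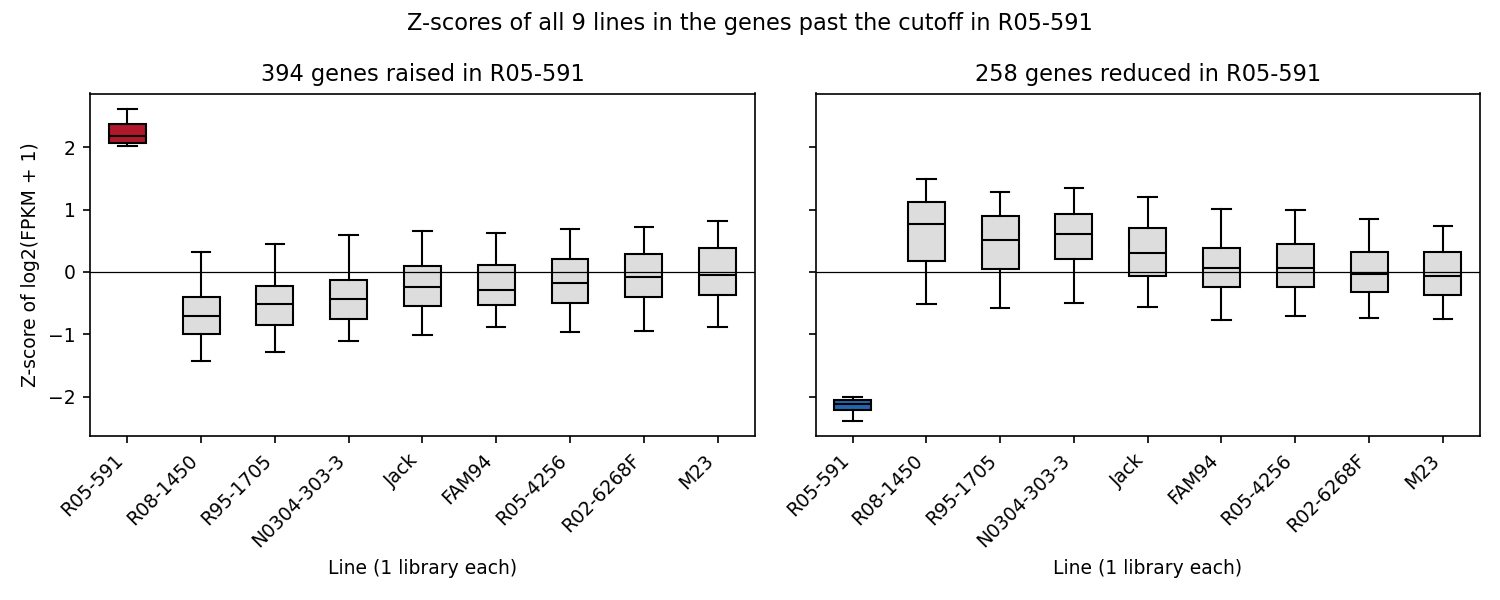
Z-scores of all 9 lines in the 394 raised (left) and 258 reduced genes (right) of R05-591. Boxes give the quartiles and median over genes and whiskers the 5th and 95th percentiles, with R05-591 first and coloured. R08-1450 has the lowest median in the raised genes (-0.70) and the highest in the reduced genes (0.77), and M23 lies near 0 in both.

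R08-1450 is the most extreme line of the table, being the lowest in 20.8% and the highest in 23.8% of all genes, so its lean has to be read against that. It was the line farthest below in 32.2% of raised genes and farthest above in 35.7% of reduced genes. For R95-1705, the lowest line in 11.9% and the highest in 8.2% of all genes, these shares were 18.0% and 15.9%, and for N0304-303-3, with 8.71% and 9.83%, they were 13.5% and 21.3%. R08-1450 also leaned against the raised genes of 6 further lines, with medians from -0.67 in those of FAM94 to -0.33, and against their reduced genes, with medians from 0.35 to 0.56. In raised genes of R95-1705 its median was 0.21 and in reduced genes -0.16. R95-1705 had -0.54 in the raised genes of M23, beside -0.52 in those of R05-591. The value of 0.77 in reduced genes was thus the farthest R08-1450 went in the reduced set of any line, and the values in raised genes had near equals in other lines.

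The relation also held from the other side. R05-591 had a median Z-score of -0.66 in the 1812 genes raised in R08-1450 (below 0 in 89.0%) and 0.58 in the 1545 genes reduced there (above 0 in 85.4%). In the 264 raised and 393 reduced genes of R95-1705 its medians were -0.51 and 0.49. This lean was not particular to R05-591. M23 had medians of -0.50 and 0.48 in the raised and reduced genes of R08-1450, and -0.49 and 0.54 in those of R95-1705. Jack had -0.48 and 0.38 in those of R08-1450, and -0.35 and 0.36 in those of R95-1705. In the sets of R05-4256, the line closest to R05-591 over those 895 genes, the medians of R05-591 were -0.14 and 0.09. Across all 33779 genes, which are not independent of each other, Pearson's r of the R05-591 Z-scores was -0.50 with R08-1450, -0.42 with R95-1705 and -0.27 with N0304-303-3, and ran from -0.04 with Jack to 0.18 with M23 in the other lines. Standardization over 9 lines fixes the mean of all such values near -0.125. Among the 614 genes of at least 100 FPKM the values were -0.58 with R08-1450 and -0.57 with R95-1705.

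The cutoff split a continuous range. The raised genes that only just passed it were XLOC_021035 (2.0006) and Glyma02g43910 (2.0012) and those that only just missed it were XLOC_019980 (1.9998) and XLOC_013481 (1.9991). For reduced genes they were XLOC_026719 (-2.0004) and XLOC_035172 (-2.0027), which passed, and XLOC_010552 (-1.9982) and XLOC_022891 (-1.9973), which missed it.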

How the data were processed

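Total RNA of S6 seeds was sequenced as TruSeq v2 libraries on a HiSeq 2000 (paired reads of 100 bp). Per the labels and the study's methods, the authors trimmed reads to 90 bp, allowed 2 mismatches, dropped reads that mapped to several places, and used CASAVA 1.8.2, Bowtie 0.12.8, TopHat 1.4.0, Cufflinks 2.1.1 and Cuffdiff 2.1.1 with the Williams 82 genome and annotation 189 of Phytozome 9.1, from which the coordinates come. The deposited table holds the mean FPKM of each gene over the lines. It also holds a Z-score for each line, a score the authors computed from log2 FPKM for the genes that averaged 0.5 FPKM or were expressed in all lines. Dropping reads with several places lowers the values of near-identical gene copies. The number of seeds pooled is not given in the sources used here.

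Genes were counted at Z-scores of 2 and -2 with Python 3.11.15, NumPy 2.4.6 and pandas 2.3.3. Gene models and descriptions came from the study's 3 tables, matched by mean FPKM and chromosome (100 of 100, 1998 of 1998 and 269 of 270 genes). Their values served only for this match and a check of the scale, and the copy of the second table used here holds only chromosomes 1 to 5 and the start of 6. Where 2 or more lines shared the lowest Z-score (within 1e-06) they were taken as 0, and FPKM were solved from log2(FPKM + 1). On that scale the highest value of 100 of 100 abundant transcripts came out within 0.01 percent of the tabulated one. That check did not cover the values taken as 0. The 9 groups are the lines named in the labels. Counting, run finding and the solution for 0 were tested on simulated data.

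Named genes were all late seed maturation genes (summarised in part), the 10 raised and 10 reduced with the highest mean, the 5 with the largest Z-score at 1 FPKM or more, members of the other lists past the cutoff, genes above 0 in R05-591 alone, runs, the genes nearest the cutoff and the 5 most like the maturation profile. Members and lists were chosen with earlier results of these data known. Promoter motifs were planned and not analysed here. No per-line column was left unused.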

Additional observations from a re-analysis of the deposited data

How the results depend on the processing

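No paired analysis was possible because each line had 1 library. Of 53 alternatives over 12 values, 31 stayed within 1.5 times the count or inside the interval of the median, and 22 moved. Counts and median levels cannot change sign, so only the median Z-scores could turn direction, and none of these did. A cutoff of 1.5 gave 1947 raised and 1844 reduced genes, medians of 1.22 and 8.58 FPKM for the mean level of raised and reduced genes, 24 late seed maturation genes reduced, and 15 raised and 10 reduced runs. At that cutoff the median Z-scores were -0.89 for R08-1450 and -0.68 for R95-1705 in raised genes and 1.01 for R08-1450 in reduced genes. A cutoff of 2.2 gave 186 raised and 69 reduced genes. Requiring a mean of 0.5 FPKM moved the median level of raised genes to 1.26 FPKM. Requiring 1 FPKM left 157 raised genes, with a median of -0.44 for R95-1705. Requiring 10 FPKM left 9 raised genes, with -1.22 for R08-1450 and -0.42 for R95-1705, and 142 reduced genes. With each line's median subtracted, 163 genes were reduced and R08-1450 stood at -0.76 in the genes raised under that scale. Without R95-1705 169 genes were reduced. The cause of these shifts beyond the stricter or looser cutoff was not tested. The median of the late seed maturation list stayed between -1.98 and -1.81 under its 4 alternatives. Leaving out R08-1450 or R95-1705 gave 11 and 9 reduced genes of that list. The unknown number of reads behind each gene limits the raised genes below 1 FPKM most, since a few reads may set their values.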
